A study of Mus musculus with 10 samples.

Results

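Counts of 6 genes of B cells and lymphoid follicles, Cd79a, Cd79b, Ms4a1, Cd22, Cr2 and Ltb, were compared in pancreas tissue of mice that differed in the insulin receptor gene Insr. The genes were taken by symbol from a table of 24421 genes; 6 of 6 were in it, and 6 of 6 passed the filter on low counts that left 13688 genes for testing. Each library came from a piece of the pancreas tail of 1 female mouse aged 12 weeks. All mice carried Ptf1aCreER, a Cre recombinase that tamoxifen activates and that the acinar cell gene Ptf1a drives, and nTnG, a nuclear fluorescent reporter of Cre activity. The 3 mice labelled Insr WT had 0 floxed Insr alleles (Insrw/w), the 3 labelled Insr Het had 1 (Insrw/f) and the 4 labelled Insr KO had 2 (Insrf/f). Cre can remove a floxed allele, here only in cells that express Ptf1a, so that B cells and other cells of the tissue were not the cells the deletion was aimed at. By the series title, the study asks whether the insulin receptor of acinar cells bears on digestive enzyme production and inflammation. Libraries are named by genotype and mouse number, and values are given in the order WT-2404, WT-1860 and WT-2067, then Het-2066, Het-1770 and Het-2042, then KO-2079, KO-2070, KO-2124 and KO-2126.

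B cells recognise antigen through the B cell receptor, a membrane immunoglobulin that signals through the paired chains Cd79a and Cd79b. Ms4a1 (CD20) and Cd22, an inhibitory co-receptor that binds sialic acid, lie beside it on the surface of mature B cells. Cr2 encodes the complement receptors CD21 and CD35, found in mice on mature B cells and on follicular dendritic cells, the stromal cells that display antigen in follicles. Ltb encodes lymphotoxin beta, which joins lymphotoxin alpha (Lta) on the surface of lymphocytes and acts through the receptor Ltbr on stromal cells. Stroma stimulated in this way makes chemokines such as Cxcl13 that gather B cells into follicles, and such follicles can form outside lymph nodes in inflamed tissue, including the pancreas.

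In GRCm38, the build named mm10 in the submitters' processing notes, the GENCODE M21 annotation places these protein-coding genes on 5 chromosomes. Cd79a (ENSMUSG00000003379.7) lies at chr7:24897381-24902197 on the plus strand, and Cd22 (ENSMUSG00000030577.14) at chr7:30865402-30880342 on the minus strand. Cd79b (ENSMUSG00000040592.11) lies at chr11:106311341-106314762 on the minus strand, and Ms4a1 (ENSMUSG00000024673.9) at chr19:11249675-11266241 on the minus strand. Cr2 (ENSMUSG00000026616.15) lies at chr1:195136811-195176716 on the minus strand, and Ltb (ENSMUSG00000024399.5) at chr17:35194439-35196320 on the plus strand. Ms4a1 overlaps the antisense gene 4930526L06Rik and Cd22 overlaps the antisense gene Gm29439. Ltb overlaps the microRNA gene Mir6973a on the same strand. Whether counting used strand is not given in the sources used here, so reads of these pairs cannot be told apart.

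RefSeq promoter windows of GRCm38.p6, from 250 bases before to 50 bases after the annotated start, matched 4 of the 6 genes: Cd79a, Cd22, Cr2 and Ltb. The windows of Cd79a, Cd22 and Ltb are shown because these genes stand for the receptor chain, the co-receptor and the cytokine, whose counts are compared below. Capitals mark matches, on either strand, to the motifs GAGGAA (PU.1), GGAAGT (ETS), EBF (TCCC, any 2 bases and GGGA) and kB (GGGA, any 4 bases and CC), the last being a pattern of NF-kB.
Cd79a, chr7:24897247-24897546, plus strand: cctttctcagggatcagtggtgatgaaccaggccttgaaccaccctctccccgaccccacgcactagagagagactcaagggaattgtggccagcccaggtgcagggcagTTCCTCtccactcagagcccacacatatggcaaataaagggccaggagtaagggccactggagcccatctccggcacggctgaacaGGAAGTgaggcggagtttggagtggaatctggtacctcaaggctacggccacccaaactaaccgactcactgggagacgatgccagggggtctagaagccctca
Cd22, chr7:30878979-30879278, minus strand: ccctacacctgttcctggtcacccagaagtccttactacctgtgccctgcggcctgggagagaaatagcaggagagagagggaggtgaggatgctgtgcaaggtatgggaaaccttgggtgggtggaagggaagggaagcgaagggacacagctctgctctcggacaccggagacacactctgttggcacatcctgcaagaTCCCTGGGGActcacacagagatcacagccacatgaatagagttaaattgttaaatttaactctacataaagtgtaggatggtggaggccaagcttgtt
Ltb, chr17:35194257-35194556, plus strand: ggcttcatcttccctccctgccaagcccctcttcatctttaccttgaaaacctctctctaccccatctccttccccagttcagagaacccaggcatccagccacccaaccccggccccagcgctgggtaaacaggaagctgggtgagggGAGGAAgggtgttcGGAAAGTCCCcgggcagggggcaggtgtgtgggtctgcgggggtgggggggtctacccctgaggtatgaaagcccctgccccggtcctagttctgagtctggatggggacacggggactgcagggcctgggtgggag
The Cd79a window holds a PU.1 match on its reverse strand at bases 111 to 116 and an ETS match at bases 197 to 202. The Cd22 window holds the palindromic EBF match at bases 202 to 211. This window lies wholly inside the GENCODE span of Cd22, chr7:30865402-30880342, so its RefSeq start is not the outermost GENCODE start. The Ltb window holds a PU.1 match at bases 150 to 155 and a kB match on its reverse strand at bases 164 to 173. Of 32851 mouse promoter windows, 28.3% hold the PU.1 letters, 23.8% the ETS letters, 20.7% the kB letters and 0.904% the EBF letters, so that only the EBF pattern is uncommon among them. The octamer ATTTGCAT, present in 1.74% of windows, and the TATA letters TATAAA, in 13.6%, matched none of the 4 windows. A match is a description of letters and not a binding site.

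Gene counts per library ranged from 11718559 to 19024351. Insr was counted in every library, at 21.0, 27.8 and 40.5 CPM (the count divided by the scaled library size and multiplied by 1e6) in WT, 43.2, 44.2 and 28.2 CPM in Het and 22.7, 33.3, 35.5 and 34.7 CPM in KO. The groups overlapped (KO against WT log2 fold change 0.09 ± 0.26 SE, edgeR adjusted p = 0.864), and gene counts do not show whether the deleted part was read. Cells other than acinar cells also express Insr, and how much of the count came from them was not tested. Genes of pancreatic digestive enzymes, a list of 19 with 18 in the table, took 13.3% of gene counts in WT-2404 and 53.5% to 71.0% in the other 9 libraries. WT-2404 also had the largest scaling factor, 3.54, against 0.596 to 1.56 in the others, so its levels depend most on the scaling. KO-2124 had the lowest enzyme share among the KO libraries, 57.3% against 64.6% to 71.0%. The mice are separate by their numbers in the sample titles, and a group's spread is that between mice.

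All 6 genes were lower in KO than in WT on average, as were 48.1% of all genes tested, with log2 fold changes from -1.61 to -1.32, and none passed the test across all genes. The median of the 6 was -1.42, beside a median of 0.03 over all genes tested. Cr2 passed the filter on low counts through the WT libraries, and did not pass it with only the KO and Het libraries. The filter thus favoured a lower value of Cr2 in both comparisons with WT. With edgeR, 0 of 6 had an adjusted p under 0.05, and 0% of all genes tested did. 3 of 6, Cd79a, Cd79b and Ltb, had an unadjusted p under 0.05 and were lower, where 13.9% of all genes tested were. DESeq2 gave 0 past its adjusted threshold and the same count of 3 unadjusted, with no p for Cd22, where 5.03% of the genes with an adjusted p were called lower. For none of the 6 did the KO and WT ranges separate, where 9.15% of all genes were lower with separate ranges, and KO-2124 lay inside the WT range for all 6. In tissue RNA of this kind, fewer B cells and less RNA of a gene per B cell cannot be told apart.

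The paired receptor chains Cd79a and Cd79b had similar patterns over the mice (Pearson r = 0.897 of log2 CPM). The pair was not the most alike of the 6 genes, with r = 0.972 for Cd79b and Cd22. The ratio of Cd79a to Cd79b counts ran from 0.375 in KO-2079 to 2.33 in KO-2126. Cd79a stood at 4.14, 9.13 and 4.35 CPM in WT, at 1.93, 1.21 and 1.04 CPM in Het, and at 0.371, 1.45, 4.75 and 0.708 CPM in KO. All 3 Het libraries lay below all 3 WT libraries, and so did every KO library except KO-2124, which lay above WT-2404 and WT-2067. The KO against WT log2 fold change of Cd79a was -1.61 ± 0.66 (SE), with an edgeR adjusted p of 0.179 and an exact two-sided permutation p of 0.114. Cd79b stood at 3.89, 9.24 and 3.92 CPM in WT, at 2.37, 1.68 and 1.72 CPM in Het, and at 0.989, 1.05, 5.03 and 0.303 CPM in KO. The order of the libraries was much the same, with KO-2124 again inside the WT range. KO-2126 was lowest for Cd79b, and KO-2079 for Cd79a. The log2 fold change of Cd79b was -1.52 ± 0.67 (SE), with an edgeR adjusted p of 0.200. Depth limits the lowest of these values: Cd79a was counted 6 times in KO-2079 and Cd79b 3 times in KO-2126, where 3 counts correspond to 0.303 CPM.

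Of the surface molecules, Ms4a1 overlapped between groups the most and Cd22 had the highest KO-2124 value of the 6 genes. Ms4a1 stood at 1.64, 3.94 and 5.02 CPM in WT, at 1.49, 2.24 and 2.09 CPM in Het, and at 0.0618, 1.71, 3.14 and 0 CPM in KO. Its groups overlapped in all 3 comparisons, and KO held both the lowest values, 1 count in KO-2079 and 0 in KO-2126, and a value of 3.14 CPM in KO-2124. A count of 0 in KO-2126 allows a level of up to 0.303 CPM. The KO against WT log2 fold change of Ms4a1 was -1.45 ± 0.92 (SE), with an edgeR adjusted p of 0.350. Cd22 stood at 4.09, 7.60 and 3.86 CPM in WT, at 1.75, 1.77 and 0.860 CPM in Het, and at 0.866, 0.527, 5.90 and 0.202 CPM in KO. KO-2124 exceeded WT-2404 and WT-2067, and the other 3 KO libraries lay below every WT library. The log2 fold change of Cd22 was -1.34 ± 0.78 (SE), with an edgeR adjusted p of 0.310.

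The follicle genes Cr2 and Ltb differed from each other in depth and in their KO pattern. Cr2 stood at 1.49, 2.57 and 2.21 CPM in WT, at 0.702, 0 and 0.184 CPM in Het, and at 0.0618, 0.659, 2.26 and 0.101 CPM in KO. It was the least counted, with 0 to 8 counts in the Het libraries and 1 to 5 in the KO libraries other than KO-2124, which had 49. The count of 0 in Het-1770 allows up to 0.280 CPM. The KO against WT log2 fold change of Cr2 was -1.32 ± 0.92 (SE), with an edgeR adjusted p of 0.395. Ltb stood at 7.15, 5.85 and 2.76 CPM in WT, at 1.05, 1.03 and 1.17 CPM in Het, and at 2.10, 0.791, 4.20 and 0.505 CPM in KO. The 3 Het libraries lay close together (SD 0.0748 CPM), and KO-2124 alone reached into the WT range. The log2 fold change of Ltb was -1.39 ± 0.55 (SE), with an edgeR adjusted p of 0.167. Exact two-sided permutation of the KO and WT mice gave p from 0.114 to 0.2 for the 6 genes, adjusted over all genes to 0.384 to 0.444, where 0.0286 is the smallest p that 35 splits allow.

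**Figure D1:**
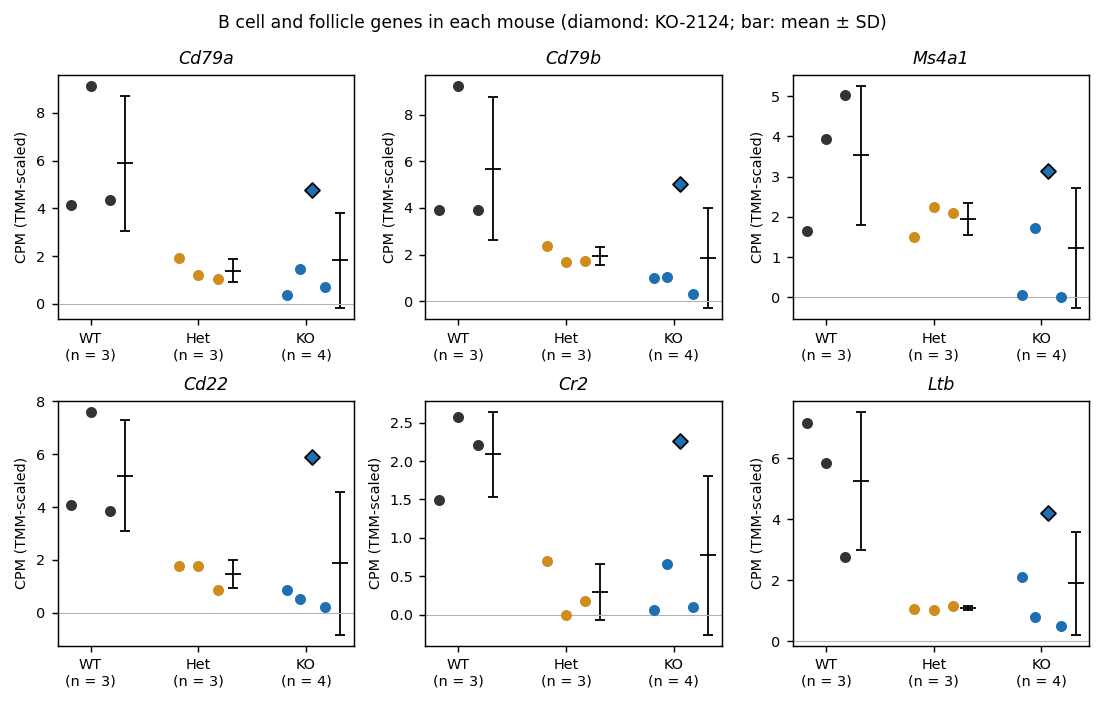
Level of each gene in every library, in CPM on a linear axis, by genotype, with the mean ± SD of each group beside its points. The diamond is KO-2124, the highest KO library in each panel, at 2.26 CPM for Cr2 to 5.90 CPM for Cd22.

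Het libraries were also lower than WT on average for 6 of 6 genes, where 49.7% of all genes were, with a median log2 fold change of -1.96. The ranges did not overlap for 5 of 6 genes (Cd79a, Cd79b, Cd22, Cr2 and Ltb), where 13.5% of all genes tested were lower without overlap, and the exact permutation p of each was 0.1, the smallest that 3 against 3 mice allow. The log2 fold change was -2.28 ± 0.64 (SE) for Ltb, -2.07 ± 0.75 for Cd79a, -1.84 ± 0.89 for Cd22 and -1.56 ± 0.74 for Cd79b. For Cr2 it was -2.80 ± 1.14 (SE) and for Ms4a1 -0.84 ± 0.98. Cr2 had passed the filter on low counts through its WT level, which favoured this direction and the separate ranges. Adjusted p-values by edgeR ran from 0.184 (Ltb) to 0.637 (Ms4a1), and 0 of 6 passed, with 0% of all genes passing. 3 of 6 (Cd79a, Cr2 and Ltb) had an unadjusted p under 0.05, where 11.6% of all genes were lower at that level. DESeq2 called 1 of the genes, Ltb, at an adjusted p of 0.0345 with a log2 fold change of -2.31, where 1.36% of the genes with an adjusted p were called lower. Ltb also passed with edgeR without WT-2067 (-2.57, adjusted p = 0.0404), where 8.19% of all genes did. Over all fitted alternatives the adjusted p of Ltb ran from 0.0345 to 0.616.

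None of the 6 genes passed the test between KO and Het. The KO against Het log2 fold changes were 0.46 ± 0.73 (SE) for Cd79a, 0.04 ± 0.71 for Cd79b, -0.60 ± 0.96 for Ms4a1, 0.50 ± 0.86 for Cd22, 1.49 ± 1.13 for Cr2 and 0.89 ± 0.62 for Ltb. Their 95% intervals were wide, from -1.51 to 1.59 for Cd79b and from -0.98 to 3.96 for Cr2, so changes of several fold in either direction were not resolved. With edgeR 0 of 6 passed and 0 had an unadjusted p under 0.05, where 0.351% of all genes were lower and 0.402% higher at that level, and DESeq2 gave 0 on both counts. The ranges separated for none of the 6, where 1.16% of all genes were lower with separate ranges. Since both comparisons with WT use the same 3 WT libraries, their shared direction is not independent evidence. The fit over 0, 1 and 2 floxed alleles gave slopes of -0.80 (Cd79a) to -0.65 (Cr2) log2 units per allele. 2 of 6, Cd79a and Cd79b, had an unadjusted p under 0.05, where 13.8% of all genes were lower, and 0 passed with edgeR (smallest adjusted p 0.213) or with DESeq2, which gave no p for 3 of them and called 2.47% of genes lower.

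**Figure D2:**
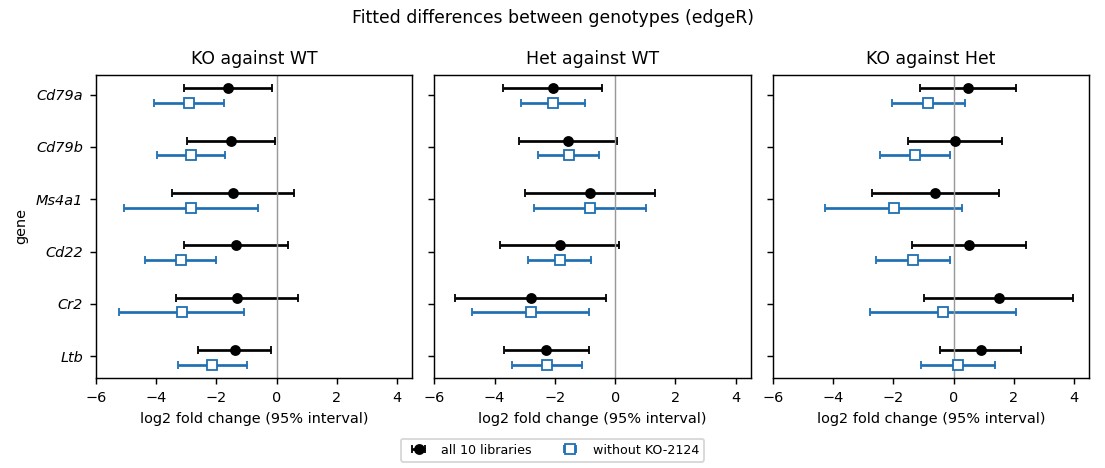
Fitted log2 fold changes of the 6 genes with 95% intervals (x axis) in KO against WT, Het against WT and KO against Het, with all 10 libraries (filled points) and without KO-2124 (open squares). Leaving out KO-2124 moves Cd22 in KO against WT from -1.34 to -3.19. That library was singled out as the highest KO library for these same genes, so a move to lower values was fixed in advance.

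The KO group was split by 1 mouse. KO-2124 was the highest KO library for 6 of 6 genes, where it was the highest for 31.6% of all genes tested. The summed level of the 6 genes was 4.45, 6.19, 25.3 and 1.82 CPM in KO, against 22.4, 38.3 and 22.1 CPM in WT and 9.30, 7.92 and 7.06 CPM in Het. KO-2124 thus lay between the WT libraries, at 5.67 times the median of the other 3 KO libraries, which lay below every Het library. Its summed level was also 2.98 times their median for myeloid genes, 2.39 times for pan-leukocyte genes, 1.84 times for T cell genes and 0.376 times for enzyme genes. The leukocyte levels did not set it apart alone: KO-2079, taken against the other KO libraries in the same way, stood at 2.41 times for myeloid, 2.05 times for pan-leukocyte and 1.80 times for T cell genes, with 0.719 times for the 6 genes. What part these had in the B cell values was not tested.

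KO-2124 was singled out from these same values, as the highest KO library for 6 of 6 genes. Leaving it out thus fixed lower KO levels and less overlap in advance, so the values that follow are a description and not a test. The shares of all genes beside them come from a library that was not chosen on those genes. Without KO-2124, the KO against WT log2 fold changes ran from -3.19 ± 0.53 (SE, Cd22) to -2.13 ± 0.52 (Ltb), with a median of -2.87. All 6 then had an unadjusted p under 0.05, where 16.4% of all genes were lower at that level, and 5 of 6, all but Ms4a1, did not overlap, where 15.6% of all genes were lower without overlap. Their edgeR adjusted p-values ran from 0.0891 to 0.114, so 0 of 6 passed, as did 0% of all genes. Against Het, 5 of the 6 KO fold changes were negative with KO-2124 left out (1, that of Ms4a1, with all libraries), with a median of -1.07. Cd79b (-1.29 ± 0.52 SE) and Cd22 (-1.35 ± 0.56 SE) then had an unadjusted p under 0.05, where 0.781% of all genes were lower at that level, and Cd79b alone had ranges that did not overlap, where 3.48% of all genes were lower without overlap. The edgeR adjusted p-values of all 6 were 1.0. The slope per allele reached -1.77 for Cr2 and -1.13 for Ltb, where 17.5% of all genes were lower at an unadjusted p under 0.05, and its adjusted p-values ran from 0.0505 (Cd22) to 0.109 (Ms4a1), with 0.00744% of all genes past the threshold.

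Other libraries also moved the counts. Over the 10 fits that each left out 1 library, 0 to 6 of the 6 genes reached an unadjusted p under 0.05 between KO and WT, with 0 without WT-1860 or KO-2070 (11.4% and 10.2% of all genes lower at that level in those fits), 2 without WT-2404 (5.29%) and 6 without KO-2124 (16.4%). A fit of only the KO and WT libraries gave 0 (12.1% of all genes), with unadjusted p from 0.0514 for Cd79a, and a fit of only the Het and WT libraries gave 5 in Het against WT, all but Ms4a1 (12.8%). The direction was lower for 6 of 6 in all 10 fits, and the median ran from -2.87 to -1.08, the latter without KO-2126. By library size alone, with no further scaling, the medians were -2.19 in KO and -3.24 in Het against WT, but the median of all genes tested then stood at -1.17 and -1.36. Beside those shifts, 2 genes (Cd79a and Ltb) in KO and 4 (Cd79a, Cd79b, Cr2 and Ltb) in Het had an adjusted p under 0.05 with edgeR, where 20.8% and 22.9% of all genes were called lower and 0 higher.

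**Figure D3:**
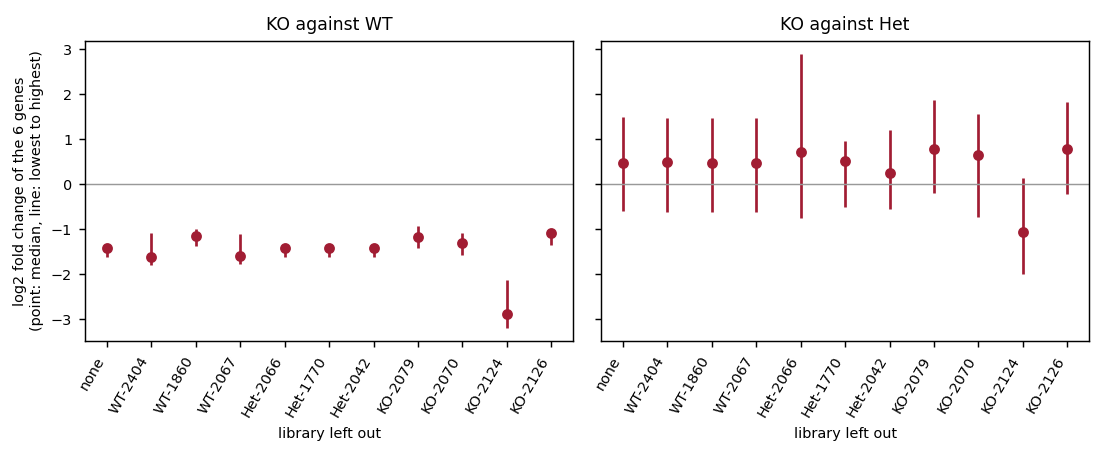
Log2 fold changes of the 6 genes in KO against WT and KO against Het (y axis; point: median, line: lowest to highest gene) with no library left out and with each library on the x axis left out in turn. All values in KO against WT lie below 0, and the median is -2.87 without KO-2124; against Het it is -1.07 without KO-2124 and above 0 in the other fits.

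Levels of the genes relative to each other were compared per length, dividing CPM by the kilobases of annotated exons. Over all libraries Cd79b stood at 2.11, Cd79a at 2.0 and Ltb at 1.75 CPM per kilobase, followed by Cd22 at 0.544, Ms4a1 at 0.345 and Cr2 at 0.126 CPM per kilobase. Neighbours in this order changed places in some libraries, except that Ltb was above Cd22 in all 10. The proportions were not the same in every mouse. Ltb made up 47.2% of the summed CPM of the 6 genes in KO-2079 and 31.9% in WT-2404, against 11.3% to 27.8% in the other 8 libraries. In KO-2079 Ltb had 34 counts where Cd79a had 6, a ratio of 5.67, and the ratio was 0.545 to 1.73 in the other 9 libraries. T cells and innate lymphoid cells also make Ltb. The summed CPM of the T cell list was 38.6 in KO-2079 and 39.4 in KO-2124, against 18.3 and 21.4 in the other KO libraries, and its part in the Ltb share was not tested.

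Across the 10 libraries the log2 CPM of the 6 genes correlated with each other from r = 0.465 (Ms4a1 and Ltb) to r = 0.972 (Cd79b and Cd22). These Pearson values are descriptions over libraries that share depth and tissue make-up. Among genes outside the 6, the 10 whose log2 CPM was most like the mean standardised profile of the 6 were Chst3 (r = 0.959), Fcer2a (0.957), Bank1 (0.953), Uba7 (0.945), Zfp831 (0.941), Fcrl1 (0.939), Agap2 (0.936), Pou2af1 (0.935), 3110039I08Rik (0.932) and Zfp39 (0.932). Fcer2a, the low-affinity IgE receptor CD23, Bank1, a B cell scaffold protein, and Pou2af1, a B cell coactivator, were in the list of B cell genes. Over 13682 genes the median r was 0.03, and 5% of genes had an r above 0.749. The median r was 0.902 over the 20 B cell genes, 0.604 over T cell genes, 0.652 over myeloid genes and -0.569 over enzyme genes. With a prior count of 0.5 in place of 2, 8 of the 10 genes were again among the 10 highest.

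A defining gene of the B lineage was counted in the tissue as well. Pax5, the transcription factor that defines the B lineage, had 22, 32 and 16 counts in WT, 2, 4 and 3 in Het, 24 in KO-2124 and 0 in the other 3 KO libraries. At 1.11 CPM, KO-2124 was inside the WT range of 0.368 to 1.75 CPM. The counts are not scaled: 1 count is 0.0167 CPM in WT-2404 and 0.0932 CPM in Het-1770. At 4 counts Het-1770 thus lay slightly above WT-2404 at 22 counts, so the Het and WT ranges of Pax5 overlapped in level. A count of 0 allows up to 0.186 CPM in KO-2079, 0.395 CPM in KO-2070 and 0.303 CPM in KO-2126. The limit in KO-2070 is above the lowest WT value. Of 20 B cell genes tested, 19 were lower in KO than in WT and 6 had an unadjusted p under 0.05 (13.9% of all genes), with a median of -1.10. In Het against WT, 19 of 20 were lower, 7 at an unadjusted p under 0.05 (11.6% of all genes), with a median of -1.51. The lowest p in KO was that of Ly86 (-1.94 ± 0.51 SE, edgeR adjusted p = 0.116), which pairs with Cd180 and which myeloid cells also express. Cd72, a co-receptor of B cells, was at -1.51 and Cd180 at -1.34. KO-2124 was the highest KO library for 18 of these 20 genes, where it was for 31.6% of all genes tested. It was also the highest for 13 of 18 myeloid and 9 of 18 T cell genes.

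Genes that act below the receptor were lower on average as well. Of 18 such genes 17 were lower in KO than in WT and 14 had an unadjusted p under 0.05 (13.9% of all genes), with a median of -1.06, and in Het 13 did (11.6%), with a median of -1.18. The adaptor Blnk was at -1.22 ± 0.30 (SE, edgeR adjusted p = 0.116), the kinase Prkcb at -1.03 and the phosphatase Ptpn6 at -0.95, and Cd81, with the highest mean CPM of the list, at -0.62. Several of these genes, Ptpn6, Lyn and Syk among them, also act in myeloid cells. With edgeR 0 of 18 passed the threshold. DESeq2 called 8 in KO (Lyn, Blnk, Inpp5d, Ptpn6, Vav1, Pik3cd, Prkcb and Fcgr2b) and 1 of the 20 B cell genes, Ly86. It called 5.03% of all genes with an adjusted p lower in KO, and the B cell list was near that share. Of the genes of antibody-secreting cells, 5 of 17 listed were tested, and the immunoglobulin constant genes were not analysed here. Of these 5, 4 were lower and 1 higher (0.02) in KO than in WT, with a median of -1.49. With edgeR 3 were lower at an unadjusted p under 0.05 (13.9% of all genes). Those with the smallest p were Mzb1, a chaperone of antibody assembly, at -2.18 ± 0.75 (SE, edgeR adjusted p = 0.132), the joining chain Jchain at -1.51 and Irf4 at -1.49. DESeq2 called 2 of the 5 tested, Jchain and Mzb1, beside the same share of 5.03%.

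Most genes of follicle organisation were lower in KO as well, by less in the median than the B cell list. Of 18 listed 13 were tested, 12 were lower in KO than in WT and 4 had an unadjusted p under 0.05 (13.9% of all genes), with a median of -0.51. Ltbr, the receptor for lymphotoxin, stood at 27.8, 27.2 and 32.2 CPM in WT and 28.5, 28.5, 22.3 and 34.6 CPM in KO (log2 fold change -0.03 ± 0.19 SE). The noncanonical NF-kB genes Relb (-1.03) and Nfkb2 (-0.70) and their regulator Traf3 (-0.51) had the smallest p-values, with edgeR adjusted p from 0.129 to 0.138. Cxcl13 stood at 6.78, 0.766 and 1.90 CPM in WT, 0.0877, 0.839 and 2.27 CPM in Het and 1.30, 3.43, 4.61 and 0.101 CPM in KO, so its groups overlapped throughout (KO against WT -0.44 ± 0.97 SE). The partner gene Lta had 15, 4 and 1 counts in WT, 2, 1 and 1 in Het and 5, 5, 1 and 0 in KO, too few to test. Ccl21a and Glycam1, genes of lymph node stroma and high endothelial venules, had 0 counts in all 10 libraries, as did 6269 of the 24421 genes. Of 8 germinal centre genes 4 were tested and 4 were lower in KO than in WT, where 48.1% of all genes were, with a median of -0.91. They ran from -1.76 (Rgs13) to -0.35, with Il21r at -1.34. With edgeR 1 of them had an unadjusted p under 0.05 (13.9% of all genes). In Het against WT 3 were lower and 1 higher, with a median of -0.74.

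Markers of other leukocytes were lower as well, and enzyme genes higher. In KO against WT the median log2 fold change was -1.5 over 18 myeloid genes (17 lower, 13 with an unadjusted p under 0.05, where 13.9% of all genes were), -1.48 over 7 pan-leukocyte genes (6 lower, 6) and -0.80 over 18 T cell genes (18 lower, 4). It was -0.18 over 5 NK cell genes, -1.70 over 7 fibroblast genes and -0.65 over 4 lymphatic endothelium genes, while 18 of 18 enzyme genes tested were higher, with a median of 1.18. Each of these medians kept its sign under the 4 scalings tried. In Het against WT the medians were -1.68 for myeloid, -1.48 for pan-leukocyte and -1.28 for T cell genes. With edgeR 0 genes of these lists passed. DESeq2 called 10 myeloid, 5 pan-leukocyte, 1 T cell, 4 fibroblast, 1 lymphatic endothelium and 1 enzyme gene in KO, the enzyme gene as higher. Of the 13992 genes with an adjusted p, it called 5.03% lower in KO and 280 genes higher. Summed levels of pan-leukocyte genes were 306, 205 and 122 CPM in WT, 83.5 to 92.1 CPM in Het-1770 and Het-2042, 61.9 CPM in Het-2066, and 98.5, 43.0, 115 and 48.0 CPM in KO. All WT libraries were above all others in this sum, so the part that the overall leukocyte content had in the B cell differences was not tested apart from the ratios that follow.

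**Figure D4:**
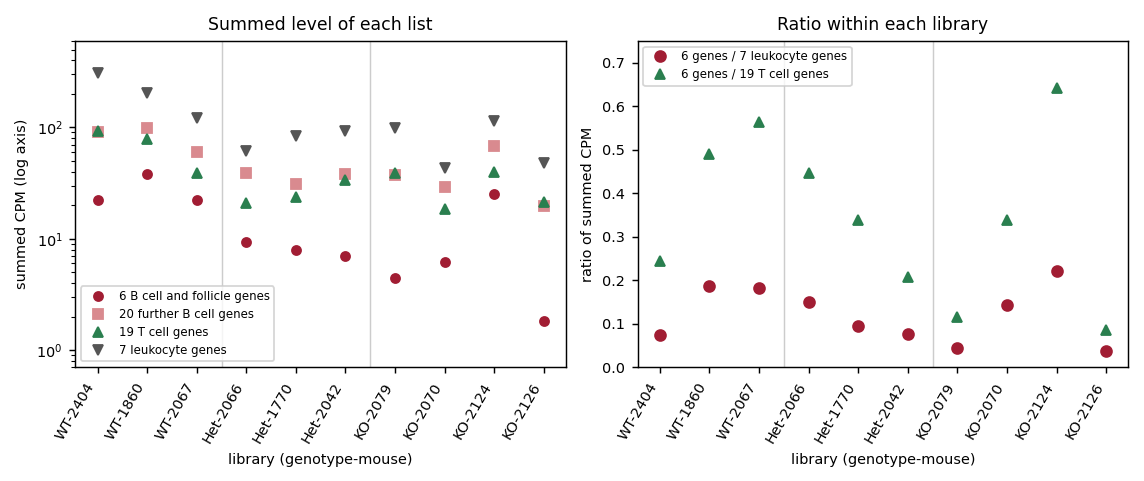
Left, summed CPM (log axis) of the 6 genes and of the B cell, T cell and pan-leukocyte lists in each library. Right, the sum of the 6 genes divided by that of the 7 pan-leukocyte or the 19 T cell genes. KO-2124 lies at 25.3 CPM for the 6 genes, inside the WT range of 22.1 to 38.3 CPM, and at 115 CPM for pan-leukocyte genes, below the WT range of 122 to 306 CPM.

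The summed CPM of the 6 genes was divided by that of the 7 pan-leukocyte genes. The ratio was 0.0732, 0.187 and 0.182 in WT, 0.150, 0.0949 and 0.0767 in Het and 0.0452, 0.144, 0.221 and 0.0379 in KO. WT-2404, which had the most leukocyte RNA, had a lower ratio than any Het library, and KO held both the highest ratio, in KO-2124, and the 2 lowest. Over T cell genes the ratio was 0.244, 0.490 and 0.562 in WT, 0.447, 0.337 and 0.208 in Het and 0.115, 0.338, 0.641 and 0.0849 in KO, with the same 3 KO libraries at the extremes. The groups overlapped in both ratios. With the list of 20 B cell genes in place of the 6, the medians over T cell genes were 1.26 in WT, 1.33 in Het and 1.28 in KO, against 0.490, 0.337 and 0.227 with the 6.

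**Figure D5:**
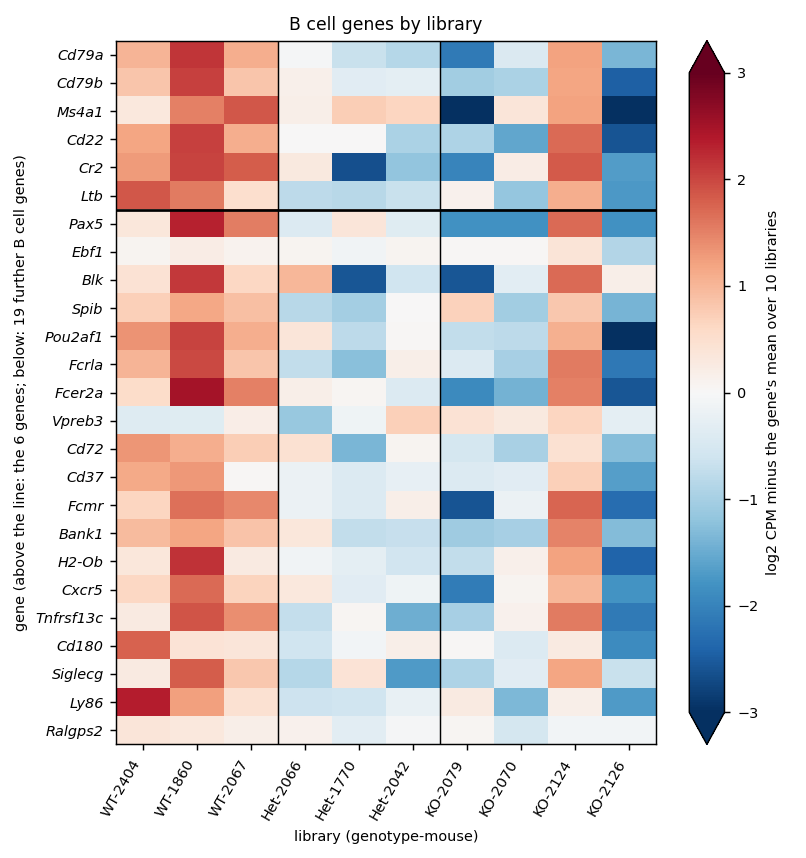
Log2 CPM of the 6 genes and of 19 of the B cell list (rows) in the 10 libraries (columns), each as the difference from the gene's mean over the libraries, with colours limited at -3 and 3. KO-2124 is above the other KO libraries for 6 of the 6 genes.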

How the data were processed

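Gene counts came from RNA of frozen pancreas tail pieces, with 1 library per mouse and 10 in all. Per the labels' protocols, the tissue was pulverised and RNA was extracted with a column kit. The authors deposited unnormalised counts by gene symbol, whole numbers whose totals differ between libraries. Per the submitters' processing notes, DRAGEN, STAR and Cufflinks and the build mm10 were used; which of them made the counts, and with which annotation and strand setting, is not given in the sources used here. A label counts 4 WT mice, of which 3 were analysed here. A further part of the genotype, shared by all groups, and single values of 2 listed genes are not reported here.

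All 10 columns were matched to samples by genotype and mouse number. The 2 rows that name no gene (2.59% to 8.71% and 0.101% to 0.584% of all counts) were left out. Libraries were compared within groups, and each pair differed by more than sampling noise (chi-square per degree of freedom 26.5 to 988), so each is 1 replicate. edgeR 4.0.16 (R 4.3.3) was run with filterByExpr (minimum count 10), TMM scaling and the robust quasi-likelihood test, two-sided, in 1 fit over 10 libraries without covariates, since the labels give no batch or litter. Adjustment was Benjamini-Hochberg over all 13688 genes tested, with a threshold of 0.05. CPM was taken on TMM-scaled library sizes, with a prior count of 2 for log2 CPM. Permutation tests were exact and two-sided. The limit for a count of 0 is 3 counts, 0.0501 to 0.395 CPM by library, and covers counting error only. The fit was tested on simulated counts. Promoter motifs and figures were made with Python 3.11.15, pandas 2.3.3 and matplotlib 3.10.9.

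The 6 genes and the other lists were chosen with earlier results of these data known, so lists are described by counts and medians with no test of their own. The genes named are the 6, Insr, from each other list the 3 with the smallest unadjusted p in KO against WT and the 1 with the highest mean CPM, genes that define a cell type, and the 10 most like the 6 in profile. For NK cell, myeloid, lymphatic, fibroblast and enzyme genes only counts and medians are given. Single genes called by DESeq2, and Ccl21a and Glycam1, were named after their values were seen. Alternatives were RLE and library-size scaling, TMM without the enzyme list, no filter, DESeq2 1.42.0, only the libraries compared, and each library left out.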

Additional observations from a re-analysis of the deposited data

Results flagged for a closer look

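In the KO group, 1 library stood far from the other 3 for 2 of the 6 genes by Dixon's test at the 95% level. Cd79b was at 5.03 CPM in KO-2124, while the rest of the group ranged from 0.303 to 1.05 CPM. Cd22 was at 5.90 CPM in KO-2124 and at 0.202 to 0.866 CPM in the others. Of 21 values tested in this way, 2 were marked, and chance gives about 1.05. Both marks fall on the same mouse, whose genes share a library, so they are not separate observations.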

How the results depend on the processing

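Genes past the threshold were 0 with edgeR in all comparisons (3222 for KO and 2715 for Het against WT at an unadjusted p under 0.05). By library size alone they were 2841 in KO and 3140 in Het against WT, 0 of them higher, with 2 and 4 of the 6 genes among them and a Het against WT median of -3.24 over the 6. With DESeq2 they were 984 (280 higher), 318 (128 higher, with 1 of the 6 genes, Ltb) and, for the slope, 443 (106 higher). Leaving out 1 library gave 0 to 1932 for KO and 0 to 1160 for Het against WT, both highest without WT-2067, and 0 to 11 for the slope. The 6 genes then counted 0 for KO and 0 to 1 for Het, where Ltb passed without WT-2067 (-2.57, edgeR adjusted p = 0.0404, with 8.19% of all genes called). Their median ran from -2.87 to -1.08 in KO against WT, from -2.12 to -1.54 in Het against WT, from -1.07 to 0.78 in KO against Het and from -1.48 to -0.50 for the slope.

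Directions turned as follows. Insr in KO against WT was -0.89 by library size alone and -0.12 to 0.38 with 1 library left out. Ltbr ran from -0.14 to 0.054 and Cxcl13 from -1.08 to 0.84. In KO against Het, Cd79b was -0.014 with DESeq2, and with 1 library left out Cd79a ran from -0.85 to 0.81, Cd79b from -1.29 to 0.37, Cd22 from -1.35 to 0.84 and Cr2 from -0.35 to 2.89. The cause of these changes was not tested. With the 20 B cell genes in place of the 6, the median ratio to T cell genes was 1.26 in WT, 1.33 in Het and 1.28 in KO, and that to pan-leukocyte genes 0.480, 0.418 and 0.505, against 0.182, 0.0949 and 0.0947 with the 6. The longer list raises the level of the ratio; why the medians of the groups lie closer with it was not tested. RLE scaling, TMM without the enzyme list, no filter and a fit of only the libraries compared changed no direction or adjusted call of the 6 genes. In the last of these fits the genes among the 6 with an unadjusted p under 0.05 went from 3 to 0 in KO and from 3 to 5 in Het against WT, and Cr2 gave no value in KO against Het, where it did not pass the filter. No paired analysis was possible because the mouse numbers are not shared between genotypes. Counts under 10 in some KO libraries limit the precision of all 6 genes.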
